A study of Mus musculus with 18 samples.

Results

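The genes described here make asparagine and arginine from aspartate or carry aspartate into the cell. They are the 5 genes Asns, Ass1, Asl, Slc1a3 and Slc1a1, chosen by their symbols from the 57180 genes of the deposited table and followed across all 6 groups of the study. Asparagine synthetase (Asns) converts aspartate to asparagine with glutamine as the nitrogen donor. Argininosuccinate synthetase (Ass1) joins aspartate to citrulline, and argininosuccinate lyase (Asl) splits the product into arginine and fumarate. Slc1a3 and Slc1a1 encode sodium-coupled carriers of acidic amino acids, which are best known for clearing glutamate and aspartate in the brain and, for Slc1a1, for their uptake in kidney and gut. Asns is also a classic target of the amino acid response, in which a shortage of amino acids raises the translation of the transcription factor ATF4, which then binds C/EBP-ATF response elements in its target genes.

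RNA was sequenced from L929 cells, a wild-type line of mouse fibroblasts, in 6 groups of 3 independent cultures, all of the 1 line. Mock cells carry the treatment label DMSO, AOA cells received 0.5 mM aminooxyacetic acid (an inhibitor of aminotransferases), and AOA+Asp cells received AOA with 20 mM aspartate. HT-DNA, HT-DNA+AOA and HT-DNA+AOA+Asp cells were in addition given 0.5 μg/ml herring testis DNA, transfected with a lipid reagent for 6 h, with AOA given 1 h beforehand. No group received aspartate alone, and whether cells without HT-DNA received the transfection reagent is not given in the sources used here. The comparisons ask whether the aminotransferase inhibitor changed these mRNAs, whether aspartate reversed the change, and whether transfected DNA altered either.

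The libraries held 17901605 to 24057343 estimated counts each, with a median of 20385838, and the table's 14263 genes with enough counts were tested together in 1 edgeR model. Levels are given as CPM, the counts of a gene relative to the library size after scaling by TMM (trimmed mean of M values, with factors of 0.918 to 1.07). A gene was called changed when edgeR's quasi-likelihood test gave an adjusted p (Benjamini-Hochberg) under 0.05. Of the fibroblast markers set out for the check, 5 of 6 were tested and their summed level was 4675 to 6840 CPM, while Thy1 had at most 4 counts. Leukocyte Ptprc and Cd3e were at 0 in every library, Cd68 ran from 109.96 to 155 CPM, and the summed epithelial, endothelial, astrocyte and neuron, and hepatocyte markers stayed at or below 0.68 CPM. Libraries differed in how their counts depended on the GC content of the transcript. The slope of log2 CPM on GC content ran from -0.27 in AOA+Asp replicate 1 to 0.30 in HT-DNA replicate 3, per 10 percentage points of GC, and the 3 HT-DNA+AOA libraries spanned -0.20, -0.029 and 0.22. Scaling by library totals in place of TMM moved the median log2 fold change of all genes from 0.015 to -0.12 for AOA against Mock and from -0.0076 to -0.12 for HT-DNA against Mock.

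The promoters of Asns and Ass1 are shown because they differ in the motifs they hold. Whether these motifs bear on the mRNA levels was not tested. RefSeq sequences were matched for 4 of the 5 genes, as 250 bases before to 50 after the start on build GRCm38.p6, and Asl was not matched. The Asns promoter lies on the minus strand at chr6:7693160-7693459 and holds the core of the C/EBP-ATF response element, TGATGNAA, which is in capitals and starts 23 bases before the start. The Ass1 promoter lies on the plus strand at chr2:31470020-31470319 and holds no such core, but 1 E box, CACGTG, in capitals, 36 bases before the start.
Asns: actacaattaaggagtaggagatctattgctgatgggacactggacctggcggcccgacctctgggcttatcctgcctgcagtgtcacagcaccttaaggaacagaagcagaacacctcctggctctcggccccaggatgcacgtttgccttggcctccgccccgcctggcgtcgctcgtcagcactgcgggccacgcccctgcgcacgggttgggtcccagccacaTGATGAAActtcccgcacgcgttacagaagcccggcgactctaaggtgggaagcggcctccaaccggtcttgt
Ass1: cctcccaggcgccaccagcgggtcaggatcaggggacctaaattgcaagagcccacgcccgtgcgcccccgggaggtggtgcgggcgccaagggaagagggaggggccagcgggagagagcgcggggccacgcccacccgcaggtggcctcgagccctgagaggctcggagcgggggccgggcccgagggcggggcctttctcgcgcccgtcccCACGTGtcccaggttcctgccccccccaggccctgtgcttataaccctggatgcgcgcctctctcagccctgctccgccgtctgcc

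On either strand, the C/EBP-ATF core occurs in 3.97% of the 32851 promoters of this length, the E box in 7.15%, and the GC box GGGCGG in 35.7%. The promoters of Asns, Ass1, Slc1a3 and Slc1a1 each held 1 GC box, and those of Slc1a3 and Slc1a1 held neither of the other motifs. A match of letters describes the sequence and shows no binding.

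Asns was the member with the clearest response. It rose with AOA by 38.6% without HT-DNA and by 35.5% with it, and in both settings it was lower again when aspartate was added. Asns (ENSMUSG00000029752) was at 407, 404 and 404 CPM in the 3 Mock libraries. It was at 546, 580.2 and 558 CPM with AOA, and at 417, 415 and 415 CPM with AOA+Asp. All AOA libraries lay above all Mock and all AOA+Asp libraries. In cells given HT-DNA alone it was at 403, 394 and 360.0 CPM. The HT-DNA+AOA libraries held 503, 531 and 534 CPM, and the HT-DNA+AOA+Asp libraries 435, 435 and 417 CPM. Here too every library with AOA and no aspartate was above every library of the other groups.

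The group means of Asns were 405 ± 1.34 CPM in Mock, 562 ± 17.2 with AOA, 416 ± 1.10 with AOA+Asp, 386 ± 22.7 with HT-DNA, 522 ± 17.1 with HT-DNA+AOA and 429 ± 10.5 with HT-DNA+AOA+Asp (SD, n = 3). In order from the top, AOA stood above HT-DNA+AOA, HT-DNA+AOA+Asp, AOA+Asp, Mock and HT-DNA, and among neighbours only the libraries of HT-DNA+AOA+Asp and AOA+Asp overlapped. Between neighbours that a comparison tested, HT-DNA+AOA did not differ past the threshold from AOA (log2 fold change -0.10, edgeR adjusted p = 0.259), nor AOA+Asp from Mock (0.037, edgeR adjusted p = 0.776), nor HT-DNA from Mock (-0.071, edgeR adjusted p = 0.316). Because these are bulk samples, more mRNA per cell and more cells with the mRNA cannot be told apart.

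**Figure D1:**
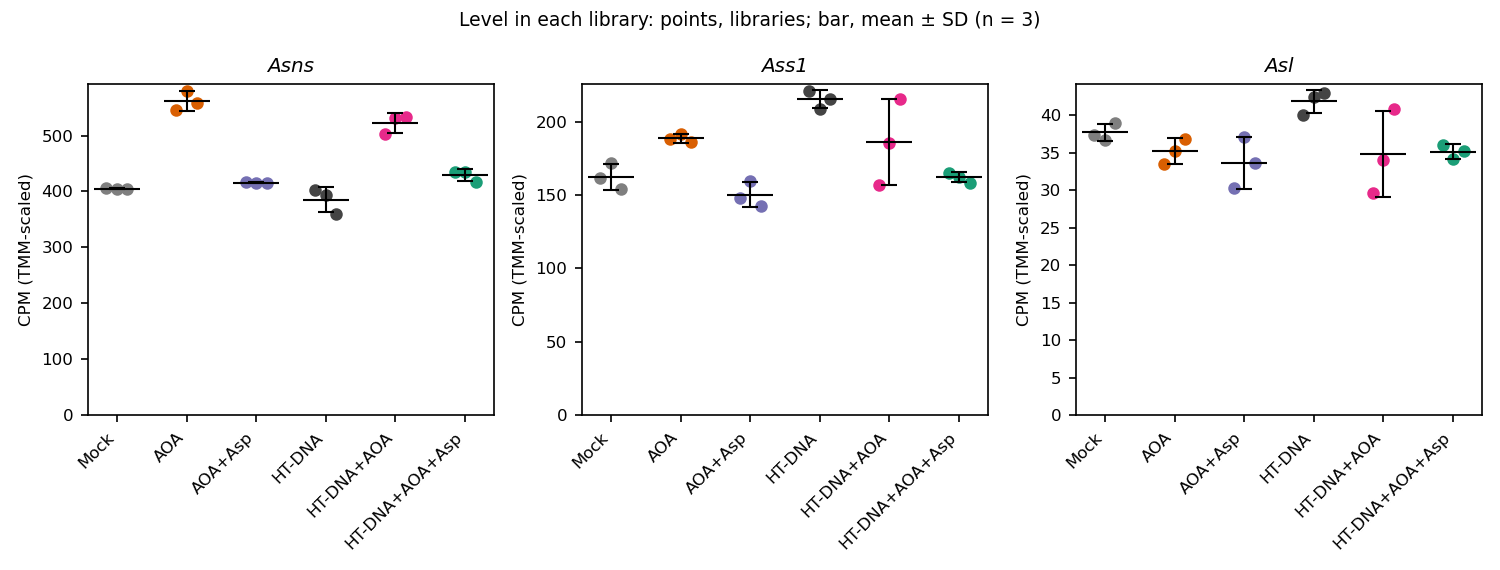
Level of Asns, Ass1 and Asl in each library, in CPM scaled by TMM on a linear axis from 0, by group, with points for the 3 libraries of a group and bars for the mean ± SD. Asns is highest in the 3 AOA and 3 HT-DNA+AOA libraries (503 to 580.2 CPM). Ass1 has its highest mean in HT-DNA (libraries at 209 to 221 CPM), and the HT-DNA+AOA libraries spread widely for Ass1 and Asl.

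With AOA against Mock, 2 of the 3 members tested were called, against a background of 45.7% of all genes tested. Asns changed by 0.47 on the log2 scale (standard error 0.0571, edgeR adjusted p = 2.4e-06), which ranked it 4831 of 14263 by size of change. Ass1 had 0.22 (standard error 0.0845, edgeR adjusted p = 0.0443) and Asl -0.099 (edgeR adjusted p = 0.423). The Asns call held under every alternative run, from 0.34 with library totals to 0.49 without AOA replicate 1. The Ass1 call did not. It was lost with library totals (0.084), with no filter on low counts (0.21), after the counts were corrected for transcript GC content and length (0.11, edgeR adjusted p = 0.0603), and without AOA replicate 1 (0.22), 2 (0.20) or 3 (0.23) or Mock replicate 1 (0.21) or 3 (0.18).

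Adding aspartate to AOA lowered both of these mRNAs. Of the 3 members, 2 were called, where 46.3% of all genes were. Asns fell by 0.43 on the log2 scale relative to AOA (standard error 0.0571, edgeR adjusted p = 7.36e-06) and Ass1 fell by 0.33 (standard error 0.0846, edgeR adjusted p = 0.0038). Asl had a log2 fold change of -0.064 (edgeR adjusted p = 0.611), which turned positive with library totals (0.021), after the GC correction (0.080) and without AOA+Asp replicate 1 (0.0069). Against Mock, AOA+Asp cells showed no member called by edgeR or DESeq2, none had an unadjusted edgeR p under 0.05, and 6.47% of all genes were called. For Asns the AOA+Asp libraries nevertheless all lay above the Mock libraries, by 2.61% in the fit.

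The same pair of comparisons was repeated in cells given HT-DNA. HT-DNA+AOA differed from HT-DNA in all 3 members tested, where 45.4% of all genes did, but not in 1 direction, and only the Asns call held under the alternatives. For Asns the log2 fold change was 0.44 (standard error 0.0571, edgeR adjusted p = 4.24e-06). Ass1 fell by 0.21 in log2 terms (standard error 0.0844, edgeR adjusted p = 0.0481) and Asl fell by 0.27 (standard error 0.0963, edgeR adjusted p = 0.0299), and for both the libraries overlapped. Both calls were lost after the GC correction (-0.078 and -0.092) and in a fit of only the libraries compared (edgeR adjusted p = 0.214 and 0.154). That of Ass1 was also lost with DESeq2, RLE factors, at least 10 counts in every library and a replicate block, and single libraries decided both, as given with each gene. HT-DNA+AOA+Asp differed from HT-DNA+AOA in 1 member, with a background of 47.7%, and this was Asns, which fell by 0.28 in log2 terms (standard error 0.057, edgeR adjusted p = 0.000499). The 2 differences of Asns in HT-DNA-treated cells held under every alternative. For AOA the values ran from 0.28 after the GC correction to 0.47 without HT-DNA replicate 1. For aspartate they ran from -0.31 without HT-DNA+AOA replicate 1 to -0.19 with library totals. In the fit of only the libraries compared, the standard errors were wider (0.0892 and 0.0817) and the edgeR adjusted p was 0.00685 for AOA and 0.0278 for aspartate.

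Compared with HT-DNA alone, HT-DNA+AOA+Asp differed in all 3 members tested, with a background of 46.6%. Asns was higher by 0.15 in log2 terms (standard error 0.057, edgeR adjusted p = 0.034), Ass1 fell by 0.41 (standard error 0.0845, edgeR adjusted p = 0.000954) and Asl fell by 0.25 (standard error 0.0958, edgeR adjusted p = 0.0383). After the GC correction none of the 3 was called, and the values were 0.086 for Asns, -0.075 for Ass1 and 0.066 for Asl, a change of sign for the last. The Asns difference was also lost with no filter on low counts (0.15), without HT-DNA replicate 2 (0.16) or 3 (0.11) and without HT-DNA+AOA+Asp replicate 1 or 2 (both 0.14).

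Whether the effects depended on HT-DNA was tested directly. For Asns, the AOA effect with HT-DNA minus that without was -0.033 on the log2 scale (standard error 0.0806, edgeR adjusted p = 0.804), and the corresponding difference of the aspartate effects was 0.15 (standard error 0.0806, edgeR adjusted p = 0.563). For Ass1 the AOA effect was lower with HT-DNA by 0.43 (standard error 0.119, edgeR adjusted p = 0.0233), the 1 member called where 15.5% of all genes were. For Asl the difference was -0.17 (edgeR adjusted p = 0.405). The difference of the aspartate effects was called by edgeR and by DESeq2 for no member, none had an unadjusted edgeR p under 0.05, and 1.05% of all genes were called.

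**Figure D2:**
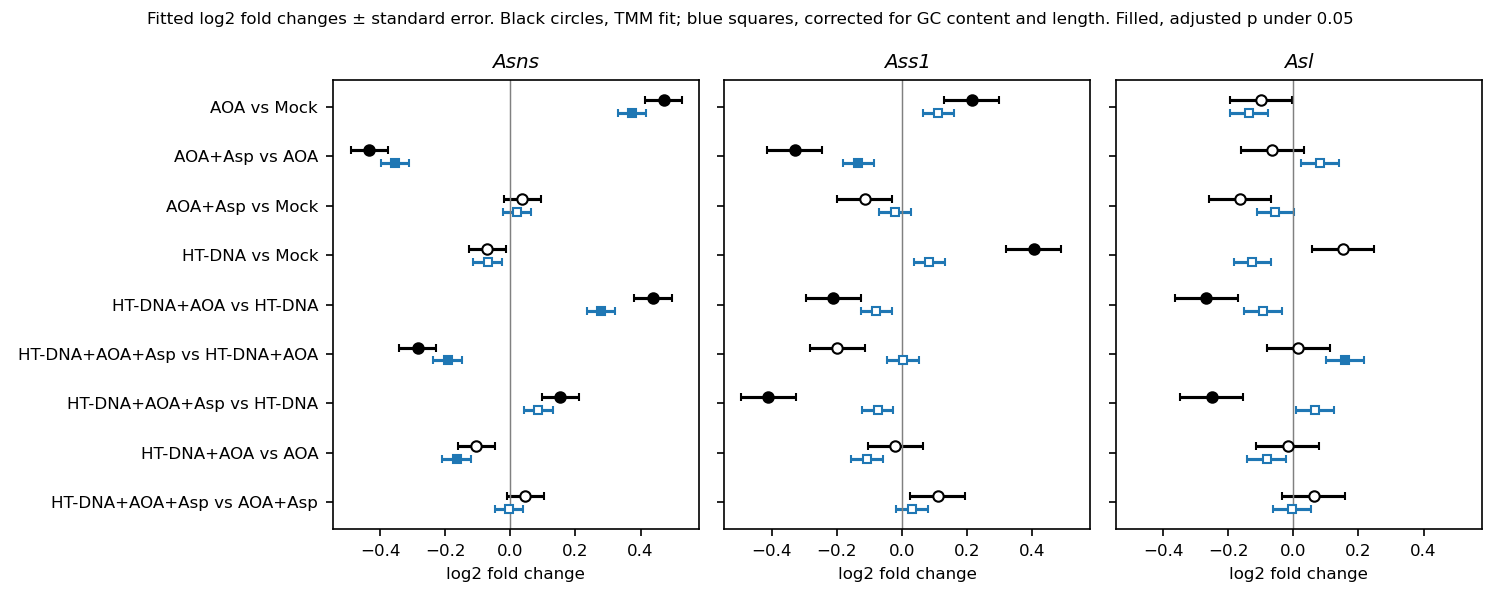
Fitted log2 fold changes of Asns, Ass1 and Asl in the 9 comparisons between groups, with black circles for the fit with TMM, blue squares for the fit corrected for GC content and length, bars for ± 1 standard error, and filled symbols for an adjusted p under 0.05. Both fits call the 4 AOA and aspartate differences of Asns (0.47, -0.43, 0.44 and -0.28 with TMM), while for Ass1 the corrected fit calls only AOA+Asp against AOA (-0.13).

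Ass1 (ENSMUSG00000076441), the enzyme that commits aspartate to arginine synthesis, was highest in cells given HT-DNA alone. It was at 162, 172 and 154 CPM in Mock and at 221, 209 and 216 CPM with HT-DNA, with no overlap. AOA libraries were at 188, 192 and 186 CPM and AOA+Asp libraries at 148, 159 and 143 CPM. The HT-DNA+AOA libraries were spread over 157, 186 and 215 CPM, and the HT-DNA+AOA+Asp libraries were at 165, 163 and 158 CPM. The widest group was thus HT-DNA+AOA, whose lowest library lay within the Mock range and whose highest lay within the HT-DNA range.

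Group means of Ass1 were 163 ± 8.83 CPM in Mock, 189 ± 2.89 with AOA, 150.2 ± 8.50 with AOA+Asp, 215 ± 6.09 with HT-DNA, 186 ± 29.2 with HT-DNA+AOA and 162 ± 3.38 with HT-DNA+AOA+Asp (SD, n = 3). From HT-DNA at the top the order ran through AOA, HT-DNA+AOA, Mock, HT-DNA+AOA+Asp and AOA+Asp, and only HT-DNA and AOA, the highest pair, did not overlap as neighbours. HT-DNA against Mock called 1 of the 3 members tested, with a background of 48.2%. This was Ass1, up by 0.41 in log2 terms (standard error 0.0844, edgeR adjusted p = 0.000853), while Asns and Asl (0.15, edgeR adjusted p = 0.2) were not called. With library totals, Asns was also called against Mock (-0.18, edgeR adjusted p = 0.00904).

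The groups with the highest and the lowest mean Ass1 also differed in the GC slope of their libraries. Ass1 has a transcript GC content of 54.7%, Asl of 55.5% and Asns of 47.7%. The HT-DNA group, highest in mean Ass1, had slopes of 0.29, 0.18 and 0.30. The AOA+Asp group, lowest in mean Ass1, had slopes of -0.27, -0.080 and -0.14. Single libraries did not all follow the slope. AOA+Asp replicate 2 (159 CPM, slope -0.080) lay above Mock replicate 3 (154 CPM, slope -0.0096). AOA replicates 1 and 3 were at 188 and 186 CPM with slopes of 0.0064 and 0.00019. The Mock libraries, with slopes of -0.0096 to -0.0017, were at 154 to 172 CPM. HT-DNA+AOA replicate 3 (215 CPM, slope 0.22) lay above HT-DNA replicate 2 (209 CPM, slope 0.18), in the order of their slopes. Among the HT-DNA+AOA libraries, Ass1 and Asl rose in the same order as the slope. After the correction, the log2 fold change of Ass1 was 0.084 for HT-DNA against Mock (edgeR adjusted p = 0.17), -0.078 for HT-DNA+AOA against HT-DNA (edgeR adjusted p = 0.189) and -0.19 for the difference of the AOA effects (edgeR adjusted p = 0.059). AOA+Asp against AOA stayed past the threshold (-0.13, edgeR adjusted p = 0.0277). This correction was chosen after the data were seen. It removes any change that follows GC content, whatever its source. Over the 9 comparisons between 8.58% and 51.8% of all genes were then called, against 3.45% to 48.2% without it. The number of genes called fell in HT-DNA against Mock (6879 to 6195) and in HT-DNA+AOA+Asp against HT-DNA (6649 to 5319). It rose in the other comparisons, as from 6516 to 7388 in AOA against Mock. The call of Ass1 in HT-DNA+AOA against HT-DNA also depended on single libraries, with -0.10 without HT-DNA+AOA replicate 1, -0.21 without replicate 2 of that group, and -0.19, -0.23 and -0.21 without HT-DNA replicates 1, 2 and 3, none past the threshold, against -0.33 without HT-DNA+AOA replicate 3, which was (edgeR adjusted p = 0.000571).

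**Figure D3:**
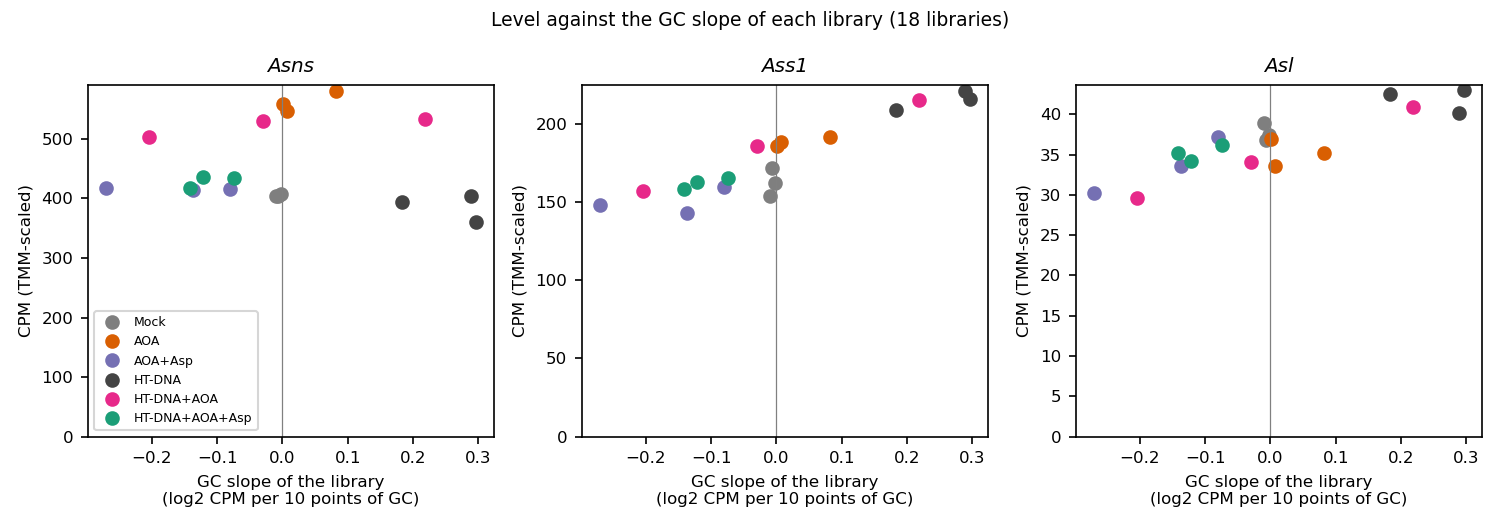
Level of Asns, Ass1 and Asl in CPM scaled by TMM (vertical axis, from 0) against the GC slope of the library (horizontal axis, log2 CPM per 10 percentage points of transcript GC content), with a point for each of the 18 libraries, coloured by group. Ass1 is at 148 CPM at the lowest slope (-0.27) and at 216 CPM at the highest (0.30), but not every library between follows the slope. For Asns the AOA and HT-DNA+AOA libraries stand above the others at every slope they span.

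Part of the Ass1 sequence is shared with a pseudogene. In GENCODE vM21, 43.1% of the 31-base stretches of Ass1 also occur in Gm5424, which was given 1.96 estimated counts in HT-DNA+AOA replicate 3 and 0 in every other library. Adding its counts to Ass1 changed no call in the 9 comparisons and 2 differences of effects. Asns shared no such stretch with another gene and Asl 0.729% of them.

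Asl (ENSMUSG00000025533), whose enzyme releases arginine, had the least abundant mRNA of the 3 and was not called with AOA alone. Its libraries were at 37.5, 36.8 and 39.0 CPM in Mock, at 33.5, 35.2 and 36.9 with AOA, and at 30.3, 37.2 and 33.6 with AOA+Asp. With HT-DNA they were at 40.1, 42.5 and 43.0 CPM, with HT-DNA+AOA at 29.6, 34.0 and 40.9, and with HT-DNA+AOA+Asp at 36.1, 34.2 and 35.2. The HT-DNA group was thus the highest by its mean, though HT-DNA+AOA replicate 3 lay above HT-DNA replicate 1. The HT-DNA+AOA libraries again spread over most of the range of the gene.

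Mean levels of Asl were 37.7 ± 1.12 CPM in Mock, 35.2 ± 1.70 with AOA, 33.7 ± 3.46 with AOA+Asp, 41.9 ± 1.54 with HT-DNA, 34.9 ± 5.69 with HT-DNA+AOA and 35.2 ± 0.962 with HT-DNA+AOA+Asp (SD, n = 3). HT-DNA and Mock, the 2 highest groups, did not overlap, and every other pair of neighbours did. Asl was called lower only relative to HT-DNA, in the comparisons with HT-DNA+AOA and HT-DNA+AOA+Asp given above. The first call was lost after the GC correction (-0.092), in the fit of only the libraries compared (-0.26), without HT-DNA replicate 2 (-0.26) or 3 (-0.25) and without HT-DNA+AOA replicate 1 (-0.16) or 2 (-0.25). The second was lost with library totals (-0.20) and whichever of the 6 libraries was left out (-0.28 to -0.23).

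No member was called when AOA-treated cells were compared with and without HT-DNA. In HT-DNA+AOA against AOA and in HT-DNA+AOA+Asp against AOA+Asp, neither edgeR nor DESeq2 called any of the 3, none had an unadjusted edgeR p under 0.05, and the backgrounds were 13.4% and 3.45%. When only the libraries compared were fitted, these backgrounds became 2.96% and 14.2%. After the GC correction, Asns was lower in HT-DNA+AOA than in AOA (log2 fold change -0.17, edgeR adjusted p = 0.00958).

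Per kilobase of merged exons, which allows genes to be compared, the level in Mock was 148 ± 0.490 CPM for Asns, 67.3 ± 3.66 for Ass1 and 7.81 ± 0.233 for Asl (SD, n = 3). With AOA these levels per kilobase were 205 ± 6.29, 78.2 ± 1.20 and 7.29 ± 0.351 (SD, n = 3). By this measure the Asns mRNA was the most abundant of the 3 with and without AOA. The levels depend on the length used. Merged exons and longest transcript were 4831 and 2413 bases for Asl, 2735 and 2016 for Asns, and 2414 and 1696 for Ass1. Exon lengths came from GENCODE vM21, which may not be the annotation behind the counts.

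Over the 18 libraries, which share the 6 groups and the GC differences, the log2 CPM of Ass1 and Asl had a Pearson r of 0.67 (Spearman rho 0.58), Asns and Ass1 an r of 0.18 (rho -0.0031), and Asns and Asl an r of -0.36 (rho -0.54). Among 12080 genes, those whose log2 CPM followed Asns most closely were Klf15, a Krüppel-like transcription factor (r = 0.983), Cln8, a protein of the endoplasmic reticulum (r = 0.982), and Aldh18a1, which makes the first intermediate of proline synthesis from glutamate (r = 0.980). For Ass1 they were Gnl1 (r = 0.976), Chmp6 (r = 0.973) and Tspan4 (r = 0.971), and for Asl they were Cuta (r = 0.932), Kcnab2 (r = 0.924) and the actin-severing protein gene Gsn (r = 0.921).

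The carriers were at or near the limit of detection. Slc1a3 (ENSMUSG00000005360) had 0 counts in 16 libraries and 1 count each in HT-DNA+AOA replicates 1 and 3. A count of 0 allows up to 3 counts, or 0.126 to 0.179 CPM at these depths, which covers counting error only. Slc1a1 (ENSMUSG00000024935) had 2, 0 and 1 counts in Mock, 2, 3 and 1 with AOA, and 0 in all libraries with AOA+Asp and with HT-DNA. It had 3, 4 and 4 counts with HT-DNA+AOA and 2, 0 and 0 with HT-DNA+AOA+Asp. Neither gene passed the filter on low counts, so neither entered the tests above.

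In an edgeR fit of 29986 genes without that filter, the adjusted p of Slc1a1 was 0.0155 for HT-DNA+AOA against HT-DNA, which held 11 counts in all against 0, and 0.198 for HT-DNA+AOA+Asp against HT-DNA+AOA. Without HT-DNA it was 0.66 for AOA against Mock and 0.0828 for AOA+Asp against AOA. Moreover, 31.5% of the 31-base stretches of Slc1a1 occur in other genes, so these few counts cannot be assigned with certainty. The span of the whole gene overlaps 4430402I18Rik and Gm5822 on the opposite strand, and whether its exons do was not tested. The summed astrocyte and neuron markers, the cells in which these carriers are best known, were at 0.093 to 0.68 CPM.

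The other carriers of the family show which of them L929 cells express. Of the 7 SLC1 genes, 3 were tested, namely the neutral amino acid carriers Slc1a4 and Slc1a5 and the glutamate carrier Slc1a7, and the rest had at most 4 counts in any library. Slc1a4 was at 66.8 ± 1.07 CPM in Mock, 114 ± 2.83 with AOA and 74.0 ± 3.67 with AOA+Asp (SD, n = 3). With HT-DNA it was at 58.1 ± 2.56 CPM, with HT-DNA+AOA at 101.5 ± 2.999 and with HT-DNA+AOA+Asp at 83.3 ± 3.35 (SD, n = 3). It thus rose with AOA in both settings, with log2 fold changes of 0.77 (edgeR adjusted p = 1.26e-08) and 0.81 (edgeR adjusted p = 4.47e-09), and was lower with aspartate in both (-0.63, edgeR adjusted p = 1.94e-07, and -0.29, edgeR adjusted p = 0.000773).

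Slc1a7 had few counts, at 0.464 ± 0.0373 CPM in Mock, 1.84 ± 0.253 with AOA and 0.264 ± 0.115 with AOA+Asp (SD, n = 3). In HT-DNA-treated cells it had 5 to 8 counts with HT-DNA, 28 to 51 with HT-DNA+AOA and 4 to 10 with HT-DNA+AOA+Asp, so in both settings the libraries with AOA and no aspartate lay above the rest. Outside those groups only 2 libraries reached the level that the filter asks for (0.491 CPM before TMM), so it was tested because it was high with AOA, and no test is given for it. Slc1a5, the main glutamine carrier of the family, was not called with AOA (0.11, edgeR adjusted p = 0.186) but was lower in AOA+Asp than in AOA (-0.54, edgeR adjusted p = 2.87e-06) and than in Mock (-0.43, edgeR adjusted p = 0.000393). Slc1a1 and Slc1a3 were too low for this comparison of the family.

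**Figure D4:**
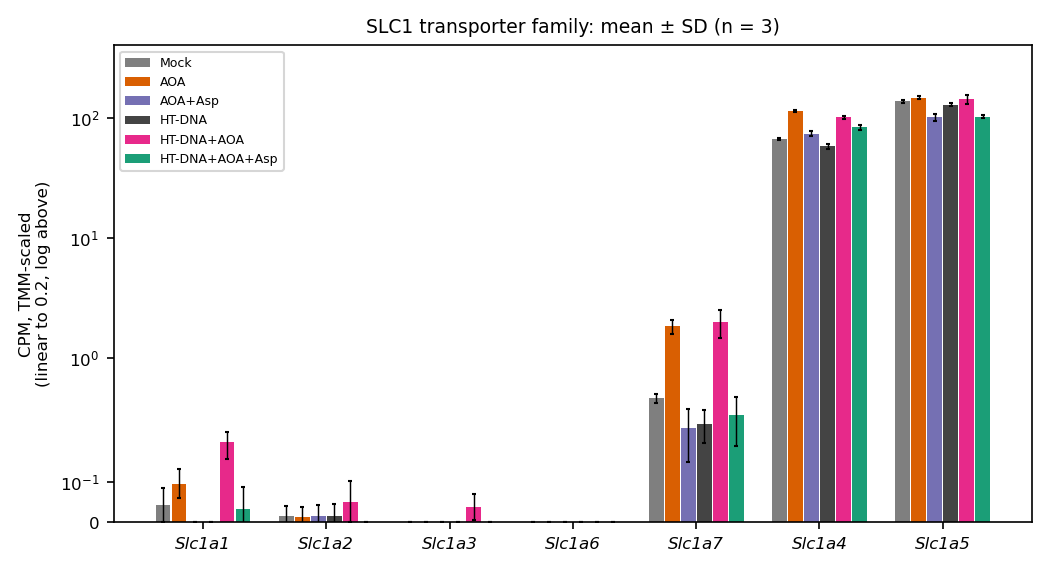
Mean level ± SD (n = 3) of the 7 SLC1 genes in each of the 6 groups, in CPM scaled by TMM, on an axis that is linear up to 0.2 CPM and logarithmic above. Slc1a4 and Slc1a5 lie between 58.1 and 148 CPM, Slc1a7 between 0.264 and 2.00 CPM, and Slc1a1, Slc1a2, Slc1a3 and Slc1a6 at the bottom of the axis.

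Around the arginine enzymes, 12 of 19 genes of arginine metabolism and the urea cycle were tested. The others, Otc, Cps1, Nags, Arg1, Arg2, Gatm and Slc25a2, had at most 3 counts in any library, too few to test the first steps of the urea cycle or arginase. With AOA, 6 of the 12 were called higher and none lower, where 45.7% of all genes were called in either direction, so the share was near the background. The list had a median log2 fold change of 0.18, against 0.015 over all genes tested. The largest were the cationic amino acid carrier Slc7a2 (1.86, edgeR adjusted p = 8.15e-05), the inducible nitric oxide synthase Nos2 (1.13, edgeR adjusted p = 8.15e-05), ornithine decarboxylase Odc1, which opens polyamine synthesis (1.10, edgeR adjusted p = 1.26e-10), and the arginine carrier Slc7a1 (0.52, edgeR adjusted p = 0.000209). These genes carry arginine or act on it or on its product ornithine, but other genes on the list that do so were not called. Ass1, which with Asl makes arginine, was also among the 6, by a call that several alternatives lost as given above.

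Odc1 was at 1139 ± 50.2 CPM in Mock and 2440 ± 111 with AOA (SD, n = 3). Slc7a2 was at 0.454 ± 0.141 and 1.65 ± 0.411 CPM (SD, n = 3). In HT-DNA-treated cells AOA called 7 of the 12 higher and 3 lower, where 45.4% of all genes were called, with a median of 0.43 against 0.024 over all genes. The calls were 6 without HT-DNA replicate 3 or without HT-DNA+AOA replicate 1, and 1 of the higher genes, Nos1, reached the level of the filter in 3 libraries of HT-DNA+AOA and only 2 others. The 3 lower genes were Ass1 and Asl, whose calls were lost as given above, and Oat, the ornithine aminotransferase (-0.43, edgeR adjusted p = 9.09e-05), which like Nos1 is named here after its value was seen. With aspartate, 7 were lower in AOA+Asp than in AOA and none higher (median -0.42, all genes -0.0091, 46.3% of all genes called). In HT-DNA+AOA+Asp 6 were lower and 1 higher than in HT-DNA+AOA (median -0.30, all genes -0.012, 47.7% of all genes called), and 4 were called in the fit of only these libraries. Without Nos1, 5 of 11 were lower and 1 higher in HT-DNA+AOA+Asp.

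The list of genes that use or handle asparagine and aspartate had 17 genes, of which 15 were tested, Asns among them. It also held the arginyl-tRNA synthetase genes Rars and Rars2, which use arginine. Both were among the genes called higher with AOA, with and without HT-DNA. AOA called 8 higher and 2 lower (median 0.41, all genes 0.015), where 45.7% of all genes were called. In HT-DNA-treated cells it called 7 higher and 3 lower (median 0.26, all genes 0.024), where 45.4% were. The 2 lower genes were the mitochondrial carriers that export aspartate, Slc25a13 (-0.73, edgeR adjusted p = 6.01e-07) and Slc25a12 (-0.65, edgeR adjusted p = 6.18e-07). Slc25a13 was at 50.4 ± 1.35 CPM in Mock, 30.4 ± 3.42 with AOA and 51.2 ± 1.70 with AOA+Asp (SD, n = 3). With HT-DNA it was at 46.3 ± 2.88 CPM, with HT-DNA+AOA at 29.5 ± 0.940 and with HT-DNA+AOA+Asp at 52.5 ± 2.08 (SD, n = 3). Both carriers also fell with AOA in HT-DNA-treated cells, by 0.65 and 0.53 on the log2 scale (edgeR adjusted p = 1.91e-06 and 5.98e-06).

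On the other side, cytosolic aspartate aminotransferase Got1, which interconverts aspartate and oxaloacetate, rose with AOA (0.46, edgeR adjusted p = 1.36e-05), and is named after its value was seen. The arginyl-tRNA synthetase genes Rars (0.57, edgeR adjusted p = 2.07e-05) and Rars2, the mitochondrial one (0.49, edgeR adjusted p = 0.00275), rose as well. In HT-DNA-treated cells Got1 rose by 0.40 (edgeR adjusted p = 5.53e-05), Rars by 0.69 (edgeR adjusted p = 1.78e-06) and Rars2 by 0.51 (edgeR adjusted p = 0.00193). Aspartate lowered Got1 from 177 ± 3.21 to 118 ± 6.25 CPM in AOA-treated cells (SD, n = 3; log2 fold change -0.58, edgeR adjusted p = 1.17e-06). Relative to AOA, 8 of the 15 genes were lower and 2 higher with aspartate (median -0.21, all genes -0.0091), where 46.3% of all genes were called. In HT-DNA-treated cells 6 were lower and 2 higher (median -0.25, all genes -0.012), a share near the 47.7% of all genes.

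Asns belongs to the amino acid response, and its change with AOA (0.47) lay below the median of the 28 genes listed for that response, all of which were tested. With AOA 23 were called higher and 2 lower (median 0.55, all genes 0.015), where 45.7% of all genes were called. In HT-DNA-treated cells 22 were higher, Atf3 among them, and 1 lower (median 0.69, all genes 0.024), where 45.4% were. Atf3 passed the filter only through HT-DNA+AOA, and without it 21 of 27 were higher and 1 lower. The largest rises were those of Ddit3, the stress transcription factor CHOP (2.997, edgeR adjusted p = 3.49e-14), Chac1, which degrades glutathione (1.91, edgeR adjusted p = 9.55e-10), the hormone Fgf21 (1.78, edgeR adjusted p = 0.000329) and the pseudokinase Trib3 (1.17, edgeR adjusted p = 4.14e-08). Ddit3 went from 46.2 ± 2.94 to 369 ± 19.3 CPM (SD, n = 3). Fgf21 had few counts, 9 to 16 in Mock and 34 to 47 with AOA. The 2 lower genes, Slc7a11 (-0.69, edgeR adjusted p = 0.000101) and Atf5 (-0.49, edgeR adjusted p = 0.00323), were named after their values were seen, as was Atf4, whose own mRNA was not called (0.16, edgeR adjusted p = 0.124).

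With aspartate 21 of the 28 were lower and 2 higher relative to AOA (median -0.59, all genes -0.0091, 46.3% of all genes called), and 22 were lower and 2 higher in HT-DNA-treated cells (median -0.47, all genes -0.012, 47.7% called). Without Atf3, which was tested because it was high in HT-DNA+AOA, 21 of 27 were lower and 2 higher in HT-DNA-treated cells. In AOA+Asp against Mock, 4 genes were higher and none lower (median -0.013, all genes 0.0054), where 6.47% of all genes were called. The calls there were 2 without Mock replicate 1 or 2, 1 without AOA+Asp replicate 1 and 7 after the GC correction. Ddit3 was 1 of these 4, at 104 ± 2.97 CPM (SD, n = 3; log2 fold change 1.17 against Mock, edgeR adjusted p = 8.59e-08), whereas Asns was not. HT-DNA against Mock called 6 higher and 11 lower (median -0.029, all genes -0.0076), where 48.2% of all genes were called.

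**Figure D5:**
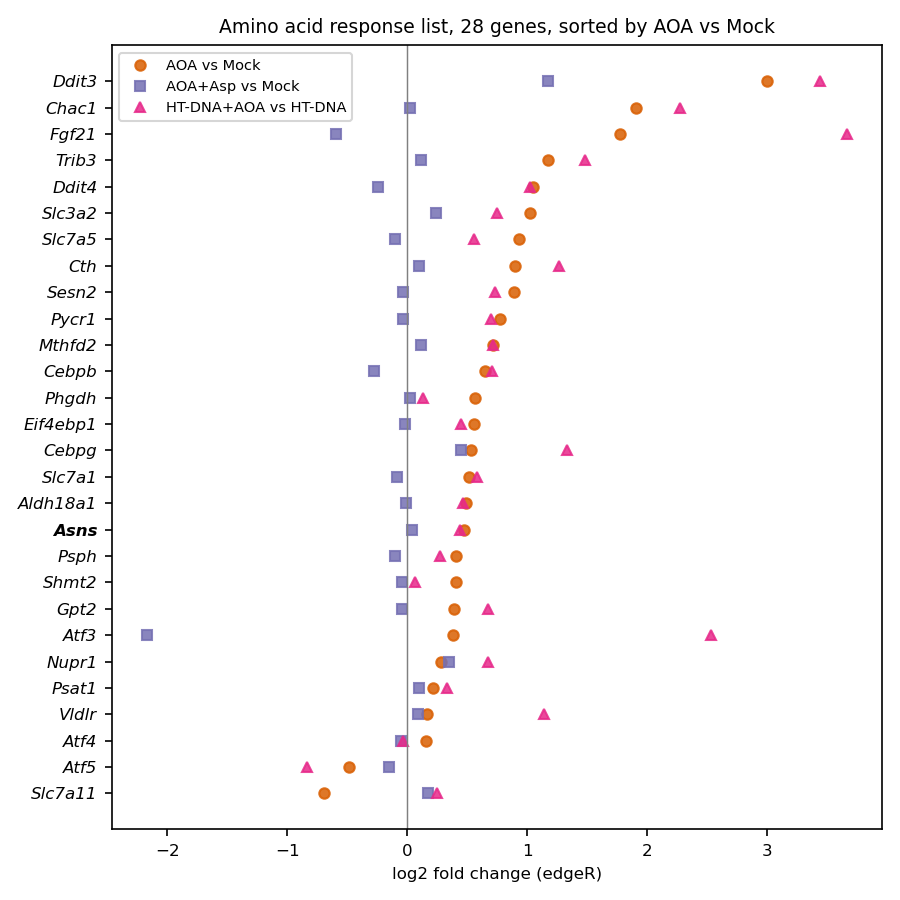
Log2 fold changes from edgeR of the 28 amino acid response genes, sorted by AOA against Mock, for AOA against Mock (circles), AOA+Asp against Mock (squares) and HT-DNA+AOA against HT-DNA (triangles). Asns (bold) lies at 0.47, 0.037 and 0.44, below Ddit3, Chac1, Fgf21 and Trib3, and most squares lie near 0.

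RefSeq promoters were matched for 25 of these 28 genes, and 9 of the 25 (36%) held the C/EBP-ATF core, against 4.51% of the 27025 genes with a promoter. The list was assembled from genes known for this response, so the share is a description of it. The matches are shown with 10 bases on either side and the core in capitals, to set the Asns site beside those of other genes on the list. Each is read on the strand of the motif, which is given with its GRCm38.p6 position and with the place of the first base of the core relative to the start of the gene, negative before it.
Asns (chr6:7693215-7693242, minus strand, core from -23): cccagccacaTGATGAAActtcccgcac
Atf3 (chr1:191183426-191183453, plus strand, core from -103): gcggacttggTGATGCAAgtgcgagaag
Chac1 (chr2:119351039-119351066, minus strand, core from -186): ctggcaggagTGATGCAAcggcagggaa
Fgf21 (chr7:45615612-45615639, plus strand, core from -132): cctggacggaTGATGCAAtgggggggtc
Nupr1 (chr7:126625563-126625590, plus strand, core from -103): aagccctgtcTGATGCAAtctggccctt
Pycr1 (chr11:120643834-120643861, minus strand, core from -103): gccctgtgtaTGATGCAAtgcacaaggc
Slc7a11 (chr3:50443662-50443689, minus strand, core from -66): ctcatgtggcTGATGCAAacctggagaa
Slc7a11 (chr3:50443643-50443670, plus strand, core from -40): ggctgcatgaTGATGCAAattctccagg
Trib3 (chr2:152344029-152344056, plus strand, core from 22): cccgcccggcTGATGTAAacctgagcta
Vldlr (chr19:27216810-27216837, minus strand, core from -193): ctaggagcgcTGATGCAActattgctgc

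Slc7a11 held the core at 2 places. Of the 9 genes, Asns, Chac1, Fgf21, Nupr1, Pycr1 and Trib3 were called higher with AOA, Slc7a11 was lower, and Atf3 (0.38, edgeR adjusted p = 0.759) and Vldlr (0.17, edgeR adjusted p = 0.236) were not called. Of all 28 genes on the list, 23 were called higher and 2 lower, where 45.7% of all genes tested were called in either direction. Whether the core goes with the rise was not tested. In HT-DNA-treated cells Vldlr was called higher with AOA (1.14, edgeR adjusted p = 1.86e-07). Atf3 had 10 to 19 counts with HT-DNA+AOA and at most 4 in any other library, so it passed the filter through that group alone and no test is given for it there. Ddit3, which rose the most, held no core in this window, and nor did most of the other genes called higher with AOA.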

How the data were processed

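TRIzol-extracted RNA of L929 cells was sequenced by Majorbio in 6 groups of 3 independent cultures, which were taken from the sample labels. The values the authors deposited are estimated counts for every gene and library with no normalization applied (11.6% are not whole). Columns of the authors' means per group were left aside. The aligner, counting program, genome build and test are not given in the sources used here, so gene positions are printed only for RefSeq promoters (GRCm38.p6).

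Estimated counts, which the design had allowed for, were rounded. In R 4.3.3, edgeR 4.0.16 filtered the genes (filterByExpr, minimum count 10, minimum total 15, groups of 3), scaled the libraries by TMM and fitted a robust quasi-likelihood model to the 18 libraries at once. The 9 comparisons and 2 differences of effects were adjusted by Benjamini-Hochberg over 14263 genes. Chi-square statistics of replicate pairs were 2.69 to 60.8 per degree of freedom, so errors came from the model. Depths of 17901605 to 24057343 counts put the limit of a count of 0 at 0.126 to 0.179 CPM.

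The members and lists were chosen with earlier results of these data known. Besides the members, up to 4 genes of each list with the largest called change in AOA against Mock were named (others are marked as named after their values were seen), and for each member tested the 3 genes (mean level 1 CPM or more) with the highest Pearson correlation of log2 CPM. GC content, exon length and shared 31-base stretches came from GENCODE vM21, and the GC correction removed each library's loess trend (span 0.3) on transcript GC content and then length, for the 97.5% of tested genes with a value. Alternatives were DESeq2 1.42.0, RLE factors, library totals, other filters, only the libraries compared, a replicate block, each library left out in turn, and, chosen after seeing the data, the GC correction and the addition of Gm5424. The steps were tested on simulated data.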

Additional observations from a re-analysis of the deposited data

Results flagged for a closer look

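The AOA effect on Ass1 differed between cells with and without HT-DNA by a test of the difference itself. AOA against Mock gave a log2 fold change of 0.22 and HT-DNA+AOA against HT-DNA one of -0.21, and their difference was -0.43 (standard error 0.119, edgeR adjusted p = 0.0233). The DESeq2 Wald test called it too. Its adjusted p from edgeR was 0.059 after the GC correction (-0.19) and 0.0638 with only the libraries of these groups (-0.44). It was between 0.0508 and 0.0587 without Mock replicate 1 (-0.43) or 3 (-0.39), AOA replicate 2 (-0.42), or HT-DNA replicate 1 (-0.41) or 3 (-0.43), and without HT-DNA+AOA replicate 3 the difference was -0.55 (edgeR adjusted p = 0.000242). The GC slopes of the HT-DNA libraries (0.18 to 0.30) lay above those of Mock (-0.0096 to -0.0017), and the part of this in the difference beyond the correction was not tested.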

How the results depend on the processing

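Of the 498 log2 fold changes of Asns, Ass1 and Asl under the alternatives, 422 kept their direction and their side of the threshold, 47 lost the call, 9 gained it and 20 changed sign. For Asns, AOA and aspartate with and without HT-DNA kept theirs under every alternative. Whether the replicate numbers pair the cultures cannot be settled with 3 libraries a group. Correlations of their deviations ran from -0.10 to 0.28, and in 0 of 9 comparisons were all above 0.1. They were 0.28, 0.070 and 0.13 in HT-DNA+AOA against AOA. The replicate block ended 1 call of a member, Ass1 in HT-DNA+AOA against HT-DNA (-0.21, edgeR adjusted p = 0.0523), and moved the genes called with AOA from 6516 to 6617. Causes of the changes below were not tested, and 3 cultures a group and the depth limit what can be called.

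After the GC correction, Asl changed sign in the difference of AOA effects (0.044), AOA+Asp against AOA (0.080), HT-DNA against Mock (-0.13), HT-DNA+AOA+Asp against AOA+Asp (-0.0047) and HT-DNA+AOA+Asp against HT-DNA (0.066), lost HT-DNA+AOA against HT-DNA (-0.092) and gained HT-DNA+AOA+Asp against HT-DNA+AOA (0.16). Asns gained HT-DNA+AOA against AOA (-0.17), lost HT-DNA+AOA+Asp against HT-DNA (0.086) and changed sign against AOA+Asp (-0.0044). Ass1 lost the difference of AOA effects (-0.19), AOA (0.11) and HT-DNA (0.084) against Mock, and HT-DNA+AOA (-0.078) and HT-DNA+AOA+Asp (-0.075) against HT-DNA, and changed sign in HT-DNA+AOA+Asp against HT-DNA+AOA (0.0036). Members called became 0 in the difference of AOA effects, HT-DNA against Mock and HT-DNA+AOA+Asp against HT-DNA, 1 in AOA against Mock, HT-DNA+AOA against AOA and HT-DNA+AOA against HT-DNA, and 2 in HT-DNA+AOA+Asp against HT-DNA+AOA.

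With library totals, Asl was called in AOA against Mock (-0.23), not in HT-DNA+AOA+Asp against HT-DNA (-0.20), and changed sign in AOA+Asp against AOA (0.021). Asns changed sign in the difference of AOA effects (0.059) and AOA+Asp against Mock (-0.0092) and was called in HT-DNA against Mock (-0.18), where 2 members then were, and Ass1 was lost in AOA against Mock (0.084). With no filter, Asns lost HT-DNA+AOA+Asp against HT-DNA (0.15) and Ass1 lost AOA against Mock (0.21), which left 1 member. With only the libraries compared, Asl (-0.26) and Ass1 (-0.21) lost HT-DNA+AOA against HT-DNA, which left 1 member, and Ass1 lost the difference of AOA effects (-0.44), which left 0. With DESeq2, RLE factors and at least 10 counts in every library, Ass1 lost HT-DNA+AOA against HT-DNA (-0.19 in each) and gained HT-DNA+AOA+Asp against HT-DNA+AOA (-0.21 in each), where 2 members were then called.

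Leaving out 1 library at a time, Asl ranged from -0.30 to -0.066 in the difference of AOA effects, -0.14 to 0.0069 in AOA+Asp against AOA, -0.15 to 0.086 in HT-DNA+AOA against AOA, -0.40 to -0.16 in HT-DNA+AOA against HT-DNA, -0.0073 to 0.14 in HT-DNA+AOA+Asp against AOA+Asp, -0.28 to -0.23 against HT-DNA, -0.088 to 0.14 against HT-DNA+AOA, and -0.022 to 0.21 in the difference of aspartate effects. Asns ranged from -0.082 to 0.0054 in the difference of AOA effects and 0.11 to 0.19 in HT-DNA+AOA+Asp against HT-DNA. Ass1 ranged from -0.55 to -0.32 in the difference of AOA effects, 0.18 to 0.25 in AOA against Mock, -0.14 to 0.086 in HT-DNA+AOA against AOA, -0.33 to -0.10 against HT-DNA and -0.31 to -0.080 in HT-DNA+AOA+Asp against HT-DNA+AOA. Members called ranged from 0 to 2 in the difference of AOA effects, 1 to 2 in AOA against Mock, 1 to 3 in HT-DNA+AOA against HT-DNA, and 1 to 2 in HT-DNA+AOA+Asp against HT-DNA and against HT-DNA+AOA.

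Counts of list genes called stayed within 1.5 times in 556 of 664 cases and moved further in 108. For the counts printed above these were arginine genes in HT-DNA+AOA against HT-DNA (6 without HT-DNA replicate 3 or HT-DNA+AOA replicate 1) and in HT-DNA+AOA+Asp against HT-DNA+AOA (4 with only the libraries compared), and amino acid response genes in AOA+Asp against Mock (7 after the GC correction, 1 to 2 without Mock replicate 1 or 2 or AOA+Asp replicate 1). A count not printed above, that of SLC1 genes called in AOA against Mock, went from 2 to 1 with at least 10 counts in every library. That filter drops Slc1a7, which was tested because it was high with AOA. With only the libraries compared, the genes called went from 1917 to 394 in HT-DNA+AOA against AOA, from 492 to 1896 in HT-DNA+AOA+Asp against AOA+Asp and from 923 to 2462 in AOA+Asp against Mock, and from 6477 to 4167 and 6797 to 4278 in the AOA and aspartate comparisons with HT-DNA, and from 2209 to 1019 and 150 to 66 in the differences of AOA and aspartate effects. After the GC correction they were 2889 in HT-DNA+AOA against AOA, 1224 in HT-DNA+AOA+Asp against AOA+Asp, 1650 in AOA+Asp against Mock and 397 in the difference of aspartate effects.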
